A study of Mus musculus with 18 samples.

Results

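Autophagy receptors are the adaptor proteins that deliver chosen cargo to the autophagosome, and 6 of them were named here: Calcoco2 (also called NDP52), Calcoco1, Sqstm1 (p62), Nbr1, Optn and Tax1bp1. Each was read from the probe set whose platform annotation gives its symbol alone, and where a gene had several, from the one with the highest mean over all arrays. This found 5 of the 6 genes, among 19938 genes read in the same way. For Optn no probe set met the rule, and it was not analysed here. Calcoco2 was selected on its log2 levels in the undifferentiated groups, where it lay on opposite sides of ES cells in adult cells of the 2 backgrounds in earlier results of these data, and the others were chosen by their shared role. Its differences among undifferentiated cells, and from them, are therefore given as a description with no test. Its comparison between the differentiated groups was tested, since those arrays were not the stated basis of that choice. Because results of this series were known by then, that p-value too is read as a description. The other 4 receptors were tested throughout.

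The study measured total RNA of cultured mouse stem cells on Affymetrix Mouse Gene 1.0 ST arrays, in 6 groups of 3 arrays. The groups were differentiated adult cells and differentiated embryonic stem (ES) cells of the 129SV background, undifferentiated adult and ES cells of the Stra8-EGFP/Rosa26 background (Stra8 below), and undifferentiated adult and ES cells of the 129SV background. The series title calls the adult cells multipotent adult germline stem cells. The labels name 3 biological replicates per group but not the number of lines or cultures behind them, nor the way the cells were differentiated, nor any feeder layer, so that the p-values measure the spread between these samples. Values are log2 signals, on which a difference of 1 is 2-fold. No background level was at hand, and 3 arrays per group limit the precision.

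In selective autophagy, ubiquitin on a damaged organelle, a protein aggregate or a bacterium is bound by a receptor, and the receptor also binds proteins of the Atg8 family (LC3 and GABARAP) on the growing autophagosome membrane. Receptor and cargo are enclosed together and degraded in the lysosome, so the receptors are themselves consumed by the pathway. Several receptors act on the same cargo, and the set used differs between cell types.

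Arrays of the same group correlated over all genes with a mean r between 0.992 and 0.998, the lowest being replicate 3 of differentiated ES 129SV, which is therefore also left out for each receptor in the comparison of the differentiated groups. The labelled cell states were checked on pluripotency genes. Pou5f1, the core pluripotency factor, averaged 10.09 in differentiated adult, 9.46 in differentiated ES, 12.26 in adult Stra8, 12.28 in ES Stra8, 12.56 in adult 129SV and 12.60 in ES 129SV cells. Sox2 averaged 9.91 in differentiated adult and 9.47 in differentiated ES cells, and 11.43 to 11.90 in the undifferentiated groups. Nanog and Dppa3 did not separate the states as clearly. Nanog averaged 11.40 in differentiated adult, 10.92 in differentiated ES and 11.54 in adult Stra8 cells. Dppa3 averaged 8.04 in differentiated adult and 6.95 in differentiated ES cells, above the 6.89 of ES 129SV cells. Of 16 pluripotency genes 14 fell and 1 rose on differentiation of adult cells (32.2% and 27.5% of all genes). In ES cells 14 fell and 0 rose (27.3% and 27.9% of all genes). Germ cell genes went different ways. Ddx4, a germ cell helicase, was lowest in the differentiated groups (6.76 in adult and 6.89 in ES cells) and highest in adult Stra8 cells (8.47). Dazl, a germ cell RNA-binding protein, was highest in the differentiated groups (9.51 in adult and 8.82 in ES cells) and lowest in adult 129SV cells (6.82). Fibroblast collagen Col1a1 was at 11.08 or above in every group mean, undifferentiated cells included. In such bulk RNA, fewer cells of a type and less RNA per cell cannot be told apart.

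Calcoco2 (chr11:96098916-96124560 in GRCm38.p6, as for the genes below), which in human cells binds galectin-8 on torn vacuoles and brings autophagy to invading bacteria, varied most of the 5 receptors. It read 10.33, 10.53 and 10.37 in adult 129SV cells, against 7.96, 7.59 and 7.64 in ES 129SV cells. In the Stra8 background it read 7.58, 7.62 and 7.42 in adult cells, against 8.57, 8.51 and 8.65 in ES cells. Adult cells were thus on opposite sides of ES cells in the backgrounds, with no overlap of arrays in either. These are the values that chose the gene. The differences were 2.68 in 129SV, which is 6.40-fold, and -1.04 in Stra8.

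After differentiation Calcoco2 read 8.69, 8.58 and 8.51 in adult 129SV cells, against 7.26, 7.27 and 6.72 in ES 129SV cells. It was lower than in the undifferentiated cells of the same origin, by 1.82 in adult cells and 0.65 in ES cells (0.47 without replicate 3 of differentiated ES). The groups fell in the order adult 129SV (10.41 ± 0.11, SD, n = 3), differentiated adult 129SV (8.59 ± 0.09), ES Stra8 (8.58 ± 0.07), ES 129SV (7.73 ± 0.20), adult Stra8 (7.54 ± 0.10) and differentiated ES 129SV (7.08 ± 0.31). In that order 2 neighbouring pairs overlapped, differentiated adult with ES Stra8 and ES 129SV with adult Stra8. The highest and lowest group means lay 3.32 apart, a span wider than that of 98.9% of all genes, where the median span was 0.62. The adult 129SV level at its top is among the values that chose the gene, so this rank restates that choice.

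**Figure D1:**
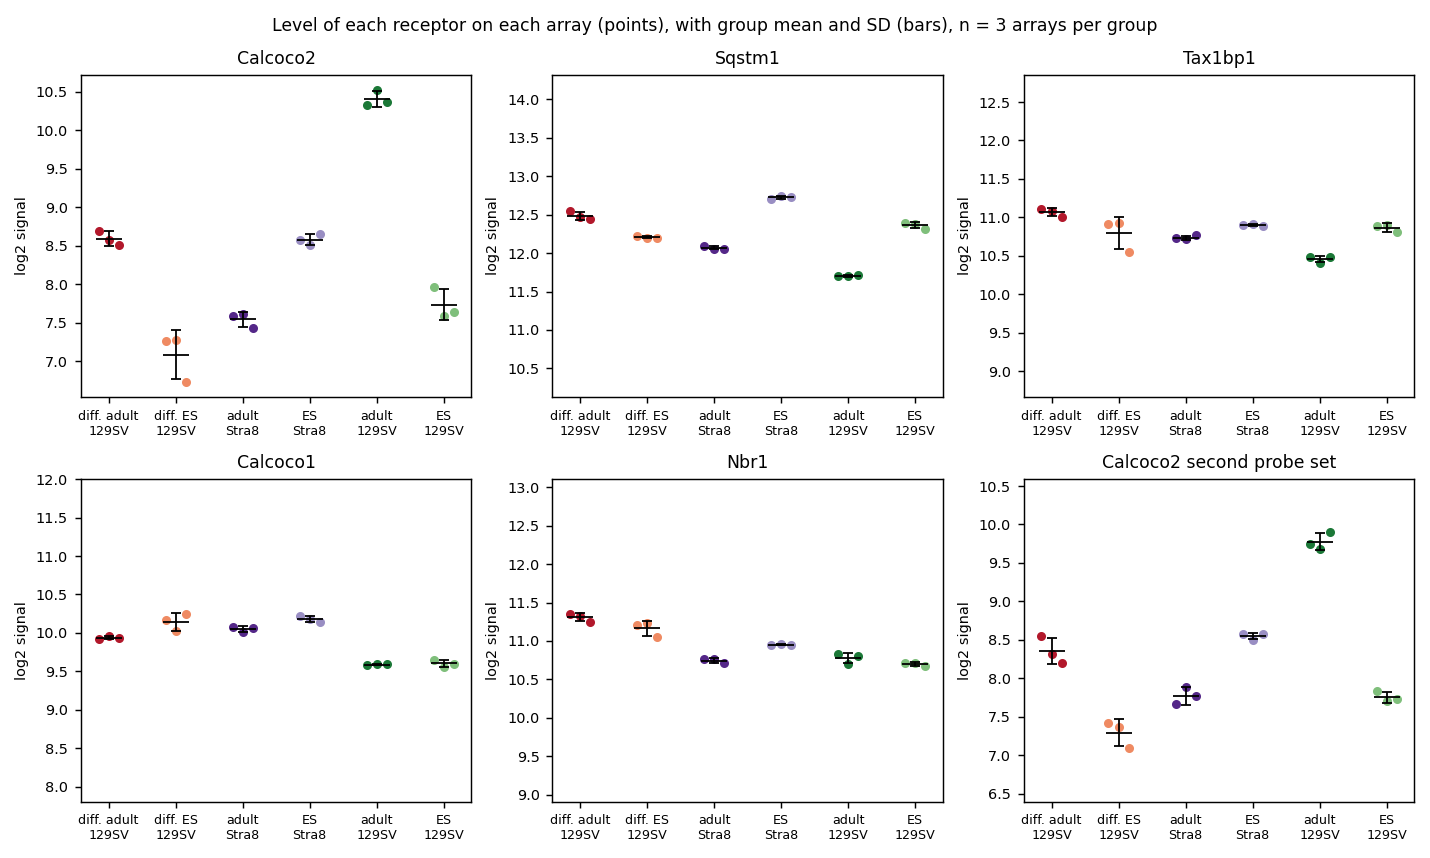
Log2 signal (vertical axes, all panels of the same height in log2 units) on every array of the 6 groups, for each receptor and for the second probe set of Calcoco2; points are arrays, bars the mean and SD of 3. Calcoco2 stands highest in adult 129SV cells, at 10.41 on average, while Sqstm1 and Tax1bp1 are lowest there. Calcoco1 also has its lowest mean there (9.59), with arrays that overlap those of ES 129SV cells (9.60).

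Differentiated adult cells had more Calcoco2 RNA than differentiated ES cells, by 1.51 ± 0.13 (SE) or 2.85-fold (limma, adjusted p = 1.54e-07), with all 3 arrays above all 3. Without replicate 3 of differentiated ES the difference was 1.33 (adjusted p = 1.17e-07). Both fits share their spread with the undifferentiated arrays, whose values chose the gene. Fitted in limma to the differentiated groups alone, the adjusted p was 7.63e-04. Whether the differentiated cells came from the same cultures as the undifferentiated ones is not stated, and the gene was picked with results of this series known. These p-values are therefore read as a description, and give no independent support to the difference before differentiation.

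A second probe set annotated to Calcoco2 alone gave a narrower version of the same pattern. It averaged 9.78 ± 0.11 in adult 129SV cells, against 7.75 ± 0.07 in ES 129SV cells, and 7.77 ± 0.11 in adult Stra8 cells, against 8.55 ± 0.04 in ES Stra8 cells. After differentiation it averaged 8.35 ± 0.17 in adult and 7.29 ± 0.18 in ES cells. Its differences were 2.02, -0.78 and 1.06 in these 3 comparisons, all of the same sign as those of the probe set used and smaller. Across the 18 arrays, on which both were read, the probe sets correlated with r = 0.99. Their order of groups differed in that ES Stra8 came above differentiated adult and adult Stra8 above ES 129SV, in each case with overlapping arrays. The annotation gives both the same gene ID. The genomic bases that each reads were not at hand, so whether both read Calcoco2 alone was not tested.

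Markers of cell states and of other cell types moved with these groups, and are given here before the other receptors. Pluripotency genes went the way of Calcoco2 between the differentiated groups. There 11 of 16 were higher and 2 lower in adult cells (19.4% and 12.8% of all genes). Their mean lay between 9.69 and 9.74 there, against 9.20 to 9.24 in differentiated ES cells. Between adult and ES cells 2 of 16 were higher and 5 lower in 129SV (23.0% and 23.1% of all genes). In Stra8 0 were higher and 11 lower (13.2% and 15.1% of all genes). The median change of the list was -0.08 in 129SV and -0.36 in Stra8. Nanog and Sox2 averaged lower in adult than in ES cells of both backgrounds. Dppa3 and Zfp42 had the signs of Calcoco2. Dppa3 averaged 9.28 in adult 129SV cells, against 6.89 in ES 129SV cells, and 7.40 in adult Stra8 cells, against 8.05 in ES Stra8 cells.

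Of all genes 27.5% rose and 32.2% fell on differentiation of adult cells, and 27.9% and 27.3% in ES cells. Endoderm and extraembryonic genes rose in 14 of 19 (2 fell, median 2.78) in adult cells. In ES cells they rose in 17 of 19 (1 fell, median 1.92). Their mean lay between 10.26 and 10.29 in differentiated adult cells, against 8.02 to 8.07 in adult 129SV cells, and between 10.17 and 10.21 in differentiated ES cells, against 8.51 to 8.54 in ES 129SV cells. Between adult and ES cells 12 of 19 were lower and 0 higher in 129SV (23.1% and 23.0% of all genes). In Stra8 14 were higher and 0 lower (13.2% and 15.1% of all genes). These are the opposite signs to Calcoco2. Between the differentiated groups 9 were higher in adult cells and 5 lower (19.4% and 12.8% of all genes). All receptor and list changes below were measured beside these shifts.

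The mean of 26 interferon-induced genes lay between 7.36 and 7.44 over the arrays of adult 129SV cells, against 10.17 to 10.20 in ES 129SV cells, with 25 of 26 lower and 0 higher. It lay between 7.67 and 7.73 in adult Stra8 cells, against 7.45 to 7.49 in ES Stra8 cells. It was 7.48 to 7.55 in differentiated adult and 7.50 to 7.54 in differentiated ES cells, where the ranges overlap. Of the 26 genes 12 were higher and 2 lower in adult than in ES Stra8 cells (13.2% and 15.1% of all genes). Between the differentiated groups 5 were higher in adult cells and 7 lower (19.4% and 12.8% of all genes). In adult relative to ES 129SV cells 23.1% of all genes were lower and 23.0% higher.

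The mean of 21 fibroblast genes lay between 10.16 and 10.21 in adult 129SV cells, against 10.97 to 11.01 in ES 129SV cells, with 17 of 21 lower and 1 higher. It lay between 10.56 and 10.60 in adult Stra8 cells, against 9.79 to 9.83 in ES Stra8 cells, with 21 of 21 higher. It lay between 9.59 and 9.62 in differentiated adult cells, against 9.01 to 9.09 in differentiated ES cells, with 15 of 21 higher and 1 lower. Fibroblast genes and Calcoco2 therefore went opposite ways in the undifferentiated comparisons and the same way between the differentiated groups. Of all genes 23.1% were lower and 23.0% higher in adult than in ES 129SV cells, and 13.2% higher in adult than in ES Stra8 cells. Between the differentiated groups 19.4% were higher in adult cells and 12.8% lower. The part of these marker lists in the receptor results was not tested.

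Sqstm1 (chr11:50200152-50210820) gathers ubiquitinated proteins into condensates and also binds Keap1, which frees the antioxidant factor Nrf2. Unlike Calcoco2, it was lower in adult cells of both backgrounds and by the same amount. It read 11.70, 11.70 and 11.72 in adult 129SV cells, against 12.39, 12.38 and 12.32 in ES 129SV cells. In Stra8 cells it read 12.09, 12.06 and 12.05 in adult cells, against 12.70, 12.75 and 12.73 in ES cells. The change was -0.66 ± 0.045 in 129SV (adjusted p = 4.26e-09) and -0.66 ± 0.045 in Stra8 (adjusted p = 2.66e-08, both limma), with no overlap of arrays. The difference between these changes was 0.00 ± 0.064, with a 95% interval from -0.14 to 0.13 (adjusted p = 0.981).

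After differentiation the side turned. Sqstm1 read 12.55, 12.47 and 12.44 in differentiated adult cells, against 12.22, 12.20 and 12.19 in differentiated ES cells, which is 0.28 ± 0.045 higher (adjusted p = 1.22e-04), and likewise 0.28 without replicate 3 of differentiated ES (3.61e-04). Differentiation raised it by 0.78 ± 0.045 in adult cells (adjusted p = 1.55e-10), while differentiated ES cells were 0.16 ± 0.045 lower than ES cells (adjusted p = 0.00635). That last call was lost when only the compared groups were fitted (adjusted p = 0.0745) and after quantile normalisation (-0.05, adjusted p = 0.393). The response of adult cells exceeded that of ES cells by 0.94 ± 0.064 (adjusted p = 5.86e-09), or by 0.93 without that replicate. Stra8 cells were higher than 129SV cells by 0.36 ± 0.045 among ES cells and also by 0.36 ± 0.045 among adult cells (adjusted p = 4.58e-06 and 3.70e-06). No neighbours in the order of its 6 groups overlapped.

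Tax1bp1 (chr6:52713692-52766780), which recruits the autophagy machinery to ubiquitin condensates and restrains inflammatory signalling, came nearest to Sqstm1. It read 10.48, 10.41 and 10.48 in adult 129SV cells, against 10.89, 10.91 and 10.80 in ES 129SV cells, a change of -0.41 ± 0.077 (adjusted p = 3.10e-04). In Stra8 cells it read 10.73, 10.72 and 10.77 in adult cells, against 10.90, 10.91 and 10.88 in ES cells. The arrays did not overlap there, but the change of -0.16 ± 0.077 was not called (adjusted p = 0.147), though it was when only the compared groups were fitted (adjusted p = 0.0178) and with array weights (-0.17, adjusted p = 0.00195). The changes in the backgrounds differed by 0.25 ± 0.11, which was not called either (adjusted p = 0.0792; 0.00602 when only those groups were fitted).

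Differentiated adult cells had 11.11, 11.08 and 11.01, against 10.91, 10.93 and 10.56 in differentiated ES cells. Tax1bp1 was higher in the differentiated adult cells by 0.27 ± 0.077 (adjusted p = 0.0138), and by 0.15 without replicate 3 of differentiated ES, the one low array (adjusted p = 0.0437). The call was lost without replicate 1 of differentiated adult (adjusted p = 0.0508), when only the differentiated groups were fitted (0.158) and with the replicate number as a block there (0.0779). Differentiation raised it by 0.61 ± 0.077 in adult cells (adjusted p = 3.04e-06), and the change in ES cells was -0.07 ± 0.077 (adjusted p = 0.475), or 0.05 without replicate 3 of differentiated ES. The response of adult cells was the larger by 0.68 ± 0.11 (adjusted p = 9.20e-05), or by 0.56 without replicate 3 of differentiated ES. Adult Stra8 cells were 0.28 ± 0.077 higher than adult 129SV cells (adjusted p = 0.00612).

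Since Sqstm1 and Tax1bp1 moved most alike of the receptors (r = 0.82 over the 18 arrays), the sequence before their starts is shown, from the promoter table of RefSeq (GRCm38.p6), with GC boxes (GGGCGG on either strand) in capitals. The stretch of Sqstm1 is chr11:50210821-50211070 on the minus strand, and that of Tax1bp1, for the first of its listed starts, chr6:52713479-52713691 on the plus strand, ending before the first annotated base of the gene.
Sqstm1: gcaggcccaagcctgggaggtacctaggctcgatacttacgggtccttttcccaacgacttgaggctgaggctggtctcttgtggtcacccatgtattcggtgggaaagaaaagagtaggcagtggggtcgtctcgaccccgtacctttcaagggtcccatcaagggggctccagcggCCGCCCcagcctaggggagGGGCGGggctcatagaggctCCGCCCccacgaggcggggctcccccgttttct
Tax1bp1: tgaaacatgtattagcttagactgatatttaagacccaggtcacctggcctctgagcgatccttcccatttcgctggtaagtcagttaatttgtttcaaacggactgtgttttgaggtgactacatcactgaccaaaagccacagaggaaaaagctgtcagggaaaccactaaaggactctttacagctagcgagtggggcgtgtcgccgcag
Sqstm1 holds 3 GC boxes in the 250 bases before its start and Tax1bp1 none, while 32.7% of all 32851 promoters of that length hold at least 1. The E-box CACGTG, bound by the Tfeb family of lysosomal regulators, and TGACNNNGC, the core of the antioxidant response element bound by Nrf2, were found in neither of these stretches on either strand. The second listed start of Tax1bp1, whose window is chr6:52713915-52714164, has 1 match to TGACNNNGC. They occur in 6.02% and 10.2% of all promoters. A match, or its absence from these bases, is a description of the letters only. Of the 6 receptors 5 had a promoter in the table; Calcoco2 had no entry.

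Calcoco1 (chr15:102706777-102722178), a relative of Calcoco2 that in human cells serves the turnover of endoplasmic reticulum and Golgi, differed between the backgrounds in cells of either origin. It averaged 10.05 ± 0.04 in adult Stra8 and 10.18 ± 0.04 in ES Stra8 cells, against 9.59 ± 0.01 in adult 129SV and 9.60 ± 0.05 in ES 129SV cells. Stra8 cells were higher by 0.58 ± 0.056 among ES cells (adjusted p = 2.49e-07) and 0.46 ± 0.056 among adult cells (adjusted p = 2.72e-06). Between adult and ES cells the change was -0.01 ± 0.056 in 129SV, with a 95% interval from -0.13 to 0.11 (adjusted p = 0.861), and -0.13 ± 0.056 in Stra8 (adjusted p = 0.0951). The change in Stra8 was called with array weights (-0.16, adjusted p = 0.00288).

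Differentiation raised Calcoco1, to 9.94 ± 0.02 in differentiated adult and 10.15 ± 0.12 in differentiated ES cells. The rises were 0.35 ± 0.056 (adjusted p = 4.00e-05) and 0.54 ± 0.056 (adjusted p = 2.56e-07). It was the 1 receptor that was lower in differentiated adult than in differentiated ES cells, by 0.21 ± 0.056 (adjusted p = 0.00881), a call lost when only the differentiated groups were fitted (0.140) and with the replicate block there (0.131). Without replicate 3 of differentiated ES the change was -0.16 (adjusted p = 0.0392). It read 9.93, 9.96 and 9.93 in differentiated adult cells, against 10.17, 10.02 and 10.25 in differentiated ES cells, so the arrays did not overlap. The responses to differentiation differed by -0.19 ± 0.079, which was not called (adjusted p = 0.0567), but was with array weights (0.0266), with dim genes left out (0.0433), after quantile normalisation (-0.35, 0.00573) and without replicate 2 of differentiated ES (-0.26, 0.00707). Without replicate 3 of that group it was -0.14 (0.131).

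Nbr1 (chr11:101552107-101581951), a partner of Sqstm1 in aggregate clearance and a receptor for peroxisomes, was higher after differentiation of either origin. It read 11.35, 11.32 and 11.25 in differentiated adult cells, against 10.83, 10.70 and 10.80 in adult 129SV cells, a rise of 0.53 ± 0.056 (adjusted p = 3.28e-07). It read 11.21, 11.23 and 11.05 in differentiated ES cells, against 10.72, 10.72 and 10.67 in ES 129SV cells, a rise of 0.46 ± 0.056 (adjusted p = 1.67e-06). These responses differed by 0.07 ± 0.079, with an interval from -0.10 to 0.23 (adjusted p = 0.525), and by 0.0075 without replicate 3 of differentiated ES. In Stra8 cells it read 10.76, 10.76 and 10.71 in adult cells, against 10.95 on all 3 arrays in ES cells, and the fall of 0.21 ± 0.056 was called (adjusted p = 0.0106). The change in 129SV was 0.08 ± 0.056 (adjusted p = 0.280; 0.16 and 0.00659 after quantile normalisation), and the changes in the backgrounds differed by -0.28 ± 0.079 (adjusted p = 0.00770). Between the differentiated groups the change was 0.14 ± 0.056, with no overlap of arrays, and it was not called (adjusted p = 0.0629). It was 0.085 without replicate 3 of differentiated ES (0.251), while it was called with array weights (0.11, 0.0405), with dim genes left out (0.0469), without replicate 2 of differentiated ES (0.18, 0.0333) and without replicate 3 of differentiated adult (0.17, 0.0461). ES Stra8 cells were 0.25 ± 0.056 higher than ES 129SV cells (adjusted p = 0.00154).

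**Figure D2:**
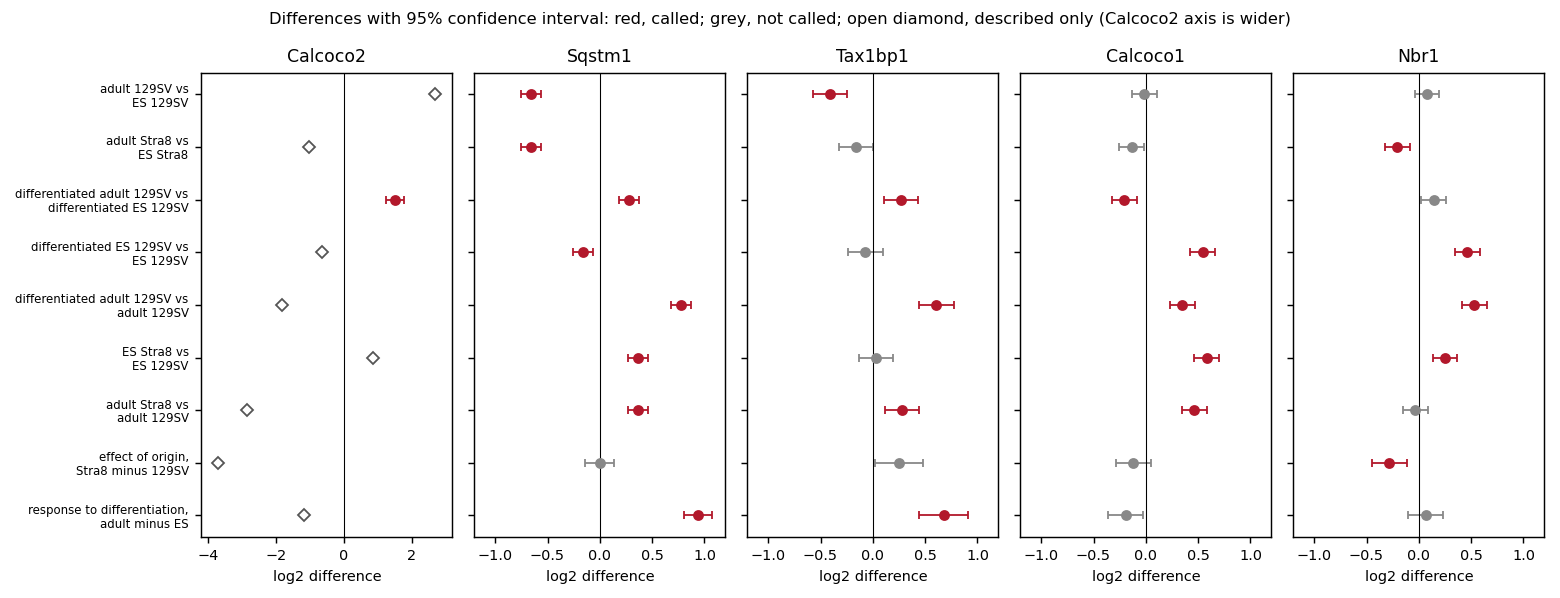
Log2 difference (horizontal axes, wider for Calcoco2) in each comparison, the first-named group minus the second, with 95% intervals; red points were called at an adjusted p under 0.05, grey ones were not, and open diamonds are described only. Sqstm1 lies at -0.66 for adult against ES cells in both backgrounds, where Calcoco2 lies at 2.68 and -1.04.

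Many genes differed between these groups, and the receptors have to be read against that. Of the 4 tested receptors 2 passed the test between adult and ES 129SV cells, both lower, where 46.1% of all genes were called and 23.1% were lower. In Stra8 cells 2 were lower in adult cells, where 28.3% of genes were called and 15.1% were lower. Between the differentiated groups Sqstm1 and Tax1bp1 were higher in adult cells (19.4% of genes) and Calcoco1 lower (12.8%). This is 3 of the 4, against 32.2% of genes called. Calcoco2 was higher there too, but is left out of this count, as it was picked with results of this series known.

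Differentiation of ES cells raised 2 of 4, Calcoco1 and Nbr1 (27.9% of genes), and lowered Sqstm1 (27.3%), where 55.2% of genes were called. These shares depend on scale: 50.5% of the called genes were higher in differentiated ES than in ES cells, or 37.1% with arrays centred on their medians. Differentiation of adult cells raised 4 of 4, where 59.7% of genes were called and 27.5% rose. Stra8 ES cells were higher than 129SV ES cells in 3 of 4 and lower in 0, where 41.4% of genes were called, 21.3% higher and 20.0% lower. Of the called genes 51.6% were higher in that comparison, or 41.5% with centred arrays. Adult Stra8 cells were higher than adult 129SV cells in 3 of 4 and lower in 0, where 51.0% were called, 24.2% higher and 26.8% lower. The effect of origin differed between backgrounds for 1 of 4, towards lower in Stra8 (43.1% of genes called, 21.3% higher and 21.8% lower). The response to differentiation differed between origins for 2 of 4, towards higher in adult cells (45.7% called, 24.2% higher and 21.5% lower). With so few receptors these shares do not set them apart from other genes.

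Sizes of change can be set against all genes too. The group means of Sqstm1 spanned 1.02, wider than 73.2% of genes, and those of Calcoco1, Nbr1 and Tax1bp1 spanned 0.59 to 0.61, near the median of all genes. Leaving Calcoco2 aside, the largest change of a receptor in any of the 9 comparisons was the 0.94 of Sqstm1 in the response to differentiation.

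Calcoco2 and the other receptors shared the sign of their differences in some comparisons and not in others. All averaged lower in adult than in ES Stra8 cells, and higher in ES Stra8 than in ES 129SV cells, though not all were called. In adult relative to ES 129SV cells Calcoco2 was higher, while Sqstm1 and Tax1bp1 were lower. The high adult 129SV level, among the values that chose Calcoco2, enters each correlation below. The Pearson r of Calcoco2 over the 18 arrays was -0.52 with Calcoco1, -0.43 with Tax1bp1, -0.38 with Sqstm1 and -0.13 with Nbr1. The 6 pairs among the others ran from 0.34 to 0.82. The Spearman values with Calcoco2 were nearer 0 for every one, from -0.47 to 0.05. All these values share the arrays and the 6 groups, and describe them only.

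The 5 genes most like Calcoco2, by Pearson r over the 18 arrays among 5491 genes whose group means span at least 1, were Fasn, the fatty acid synthase (0.98), Atxn7l3, of the SAGA deubiquitinase module (0.97), Rex1bd (0.96), Cox4i1, of cytochrome c oxidase (0.96), and Tex19.1, a germ cell gene (0.96). Like Calcoco2 they were highest in adult 129SV cells, which largely follows from choosing them for likeness to Calcoco2 on these arrays. Fasn averaged 12.07 there, against 10.87 in ES 129SV cells, and 11.36 in differentiated adult cells, against 10.59 in differentiated ES cells. Tex19.1 averaged 9.76 in adult 129SV cells, against 8.21 in ES 129SV cells. By Spearman correlation, and by Pearson r over the 6 group means, 3 of these 5 genes were again among the top 5. Among the other receptors the gene most like Sqstm1 was Mme, a membrane peptidase (0.96), that most like Tax1bp1 was Purb (0.95), that most like Calcoco1 the peptide transporter Slc15a2 (0.95), and that most like Nbr1 Cdc16, of the anaphase-promoting complex (0.98).

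**Figure D3:**
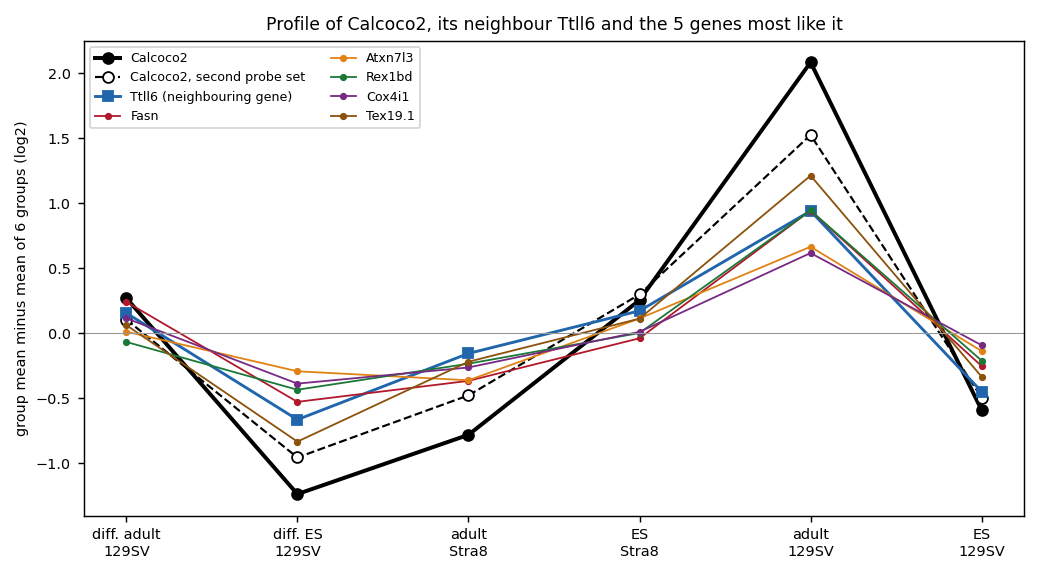
Group mean minus the mean of the 6 groups (log2, vertical axis) for both probe sets of Calcoco2, the neighbouring gene Ttll6 and the 5 genes most like Calcoco2; lines join groups to guide the eye. All 8 profiles peak in adult 129SV cells. The 5 genes were chosen for likeness to Calcoco2 on these same arrays, so their peak largely follows from that choice.

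The genes beside Calcoco2 on chromosome 11 were examined too. Its next measured neighbour, Ttll6, a tubulin polyglutamylase, had a profile close to it (r = 0.95 over the 18 arrays). Ttll6 read 8.08, 8.38 and 8.20 in adult 129SV cells, against 6.86, 6.68 and 6.95 in ES 129SV cells, a rise of 1.39 (adjusted p = 1.69e-09). It averaged 7.12 ± 0.02 in adult Stra8 cells, against 7.45 ± 0.06 in ES Stra8 cells (a fall of 0.33, adjusted p = 0.00992). After differentiation it averaged 7.43 ± 0.13 in adult cells, against 6.61 ± 0.11 in ES cells, which is higher by 0.82 (adjusted p = 2.24e-06). Each of these changes has the sign of that of Calcoco2, and each is smaller.

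On the other side Atp5g1, a subunit of ATP synthase, and Snf8, of the ESCRT-II complex, rose in adult 129SV cells by 0.81 and 0.76 and were higher in differentiated adult cells by 0.58 and 0.48. Their changes in Stra8 cells, 0.26 (adjusted p = 0.106) and 0.11 (0.420), were not called. Ube2z, a ubiquitin-conjugating enzyme on that side, was called in all 3 comparisons with the signs of Calcoco2, at 0.27 (adjusted p = 0.00279), -0.29 (0.00318) and 0.35 (6.18e-04). In adult relative to ES 129SV cells 5 of the 10 neighbours, taken 5 on each side, were called, all higher, against 23.0% of all genes called higher there. In Stra8 cells 1 was higher and 2 were lower (13.2% and 15.1% of genes), and between the differentiated groups 5 were higher and 1 lower (19.4% and 12.8%). The Hox genes and the microRNA gene beyond Ttll6 correlated with Calcoco2 between -0.07 and 0.10. On the other side r was 0.84 for Snf8, 0.72 for Atp5g1, 0.69 for Igf2bp1, 0.62 for Ube2z and 0.06 for Gip.

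**Figure D4:**
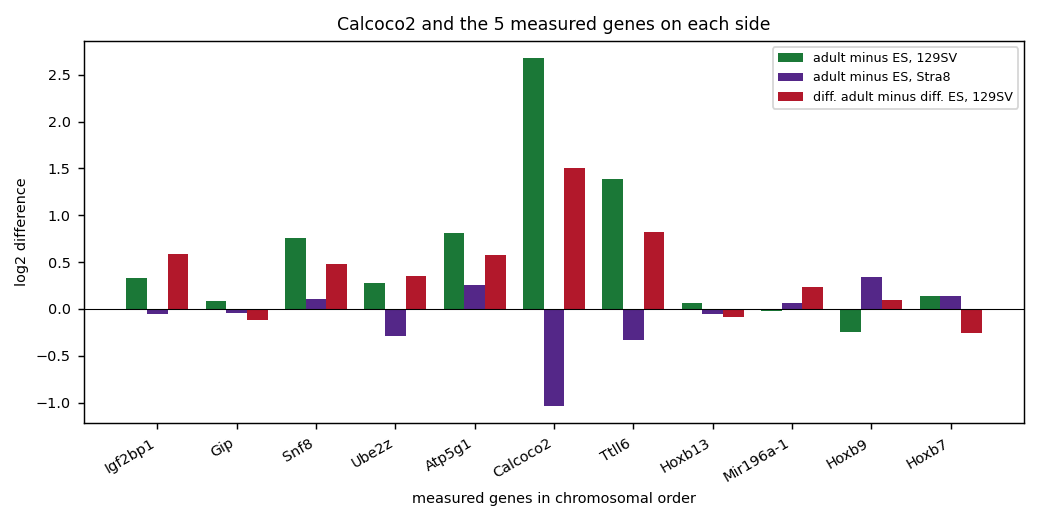
Log2 difference (vertical axis) between adult and ES cells in 3 comparisons for Calcoco2 and the 5 measured genes on each side, in the order of the chromosome (horizontal axis). Calcoco2 (2.68, -1.04 and 1.51) and Ttll6 (1.39, -0.33 and 0.82) share their signs.

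The Atg8 proteins, which receptors bind on the autophagosome, went different ways. Map1lc3a rose by 0.76 in adult 129SV cells relative to ES 129SV cells (adjusted p = 6.48e-08), while Gabarapl1 fell by 0.42 (0.00261), so that 1 of 5 rose and 2 fell (23.0% and 23.1% of all genes). Between the differentiated groups 3 of 5 were higher in adult cells, where 19.4% of all genes were, led by Gabarapl2 (0.64, adjusted p = 8.62e-05) and Map1lc3b (0.55, 2.70e-04). Differentiation of adult cells raised 2 and lowered 2 of the 5 (27.5% and 32.2% of all genes), with Gabarap up by 1.01 (adjusted p = 1.38e-10).

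Among the 31 genes that build the autophagosome, 14 fell and 7 rose in adult relative to ES 129SV cells, against 23.1% of all genes lower and 23.0% higher, with a median of -0.13 (0.06 over all genes). Rb1cc1, the scaffold of the Ulk1 kinase complex that receptors can recruit, fell by 1.29 (adjusted p = 1.70e-08), and Atg3, which loads Atg8 proteins onto lipid, fell by 0.84 (1.26e-05). Differentiation of adult cells raised 17 and lowered 10 of the 31, where 27.5% and 32.2% of all genes rose and fell, with the kinase Ulk2 up by 1.90 and Rb1cc1 by 1.75. That background is sensitive to scale: of all genes called, 46.0% were higher in differentiated adult than in adult cells, or 35.9% with arrays centred on their medians.

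The other cargo receptors, most of which sit in the membrane of the organelle they mark, fell in 9 of 15 and rose in 2 between adult and ES 129SV cells (median -0.28; 23.1% and 23.0% of all genes). Bnip3, a mitophagy receptor induced by hypoxia, fell by 2.02 (adjusted p = 2.14e-14). In Stra8 cells 4 of 15 rose and none fell (13.2% and 15.1% of all genes), Bnip3 by 0.52 (adjusted p = 1.05e-06). Differentiation of adult cells raised 12 of 15 and lowered 3 (27.5% and 32.2% of all genes), with the ferritin receptor Ncoa4 up by 1.08.

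Partners and kinases of the receptors fell in 8 of 13 and rose in 1 between adult and ES 129SV cells (median -0.47; 23.1% and 23.0% of all genes); Ulk1 and Rb1cc1 stand in this list and in that of autophagosome formation. Lgals8, the galectin that Calcoco2 binds in human cells, fell by 2.17 (adjusted p = 2.14e-14) and the kinase Ikbke by 1.14 (3.64e-10). Lgals8 thus went against Calcoco2 in that comparison. Between the differentiated groups 1 of 13 was higher in adult cells and 2 were lower, against 19.4% and 12.8% of all genes. Ikbke was lower in adult cells by 0.51 (adjusted p = 1.11e-05), and Tbk1, the kinase that phosphorylates several receptors, was higher by 0.33 (0.00391).

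Genes of the lysosome and of the Tfeb program fell in 17 of 21 and rose in 1 between adult and ES 129SV cells (median -0.63; 23.1% and 23.0% of all genes), among them the membrane protein Lamp2 (-1.88, adjusted p = 3.62e-10) and the galactosidase Gla (-1.84, 3.96e-13). Differentiation of adult cells raised 18 of 21 and lowered 2 (median 1.05; 27.5% and 32.2% of all genes), Lamp2 by 2.44 (4.23e-12). In Stra8 cells 9 rose and 4 fell between adult and ES cells (median 0.06, with 13.2% and 15.1% of all genes). Sqstm1 was lower in adult cells of both backgrounds. A link between these genes and Sqstm1 was not tested.

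Nrf2 target genes, of which Sqstm1 is one and which were listed without it, fell in 8 of 16 and rose in 4 between adult and ES 129SV cells (median -0.18; 23.1% and 23.0% of all genes), led by the cystine transporter Slc7a11 (-2.36, adjusted p = 1.06e-11). They fell in 2 and rose in 3 of 16 between adult and ES Stra8 cells (15.1% and 13.2% of all genes), and fell in 3 and rose in 8 of 16 between the differentiated groups (12.8% and 19.4% of all genes).

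**Figure D5:**
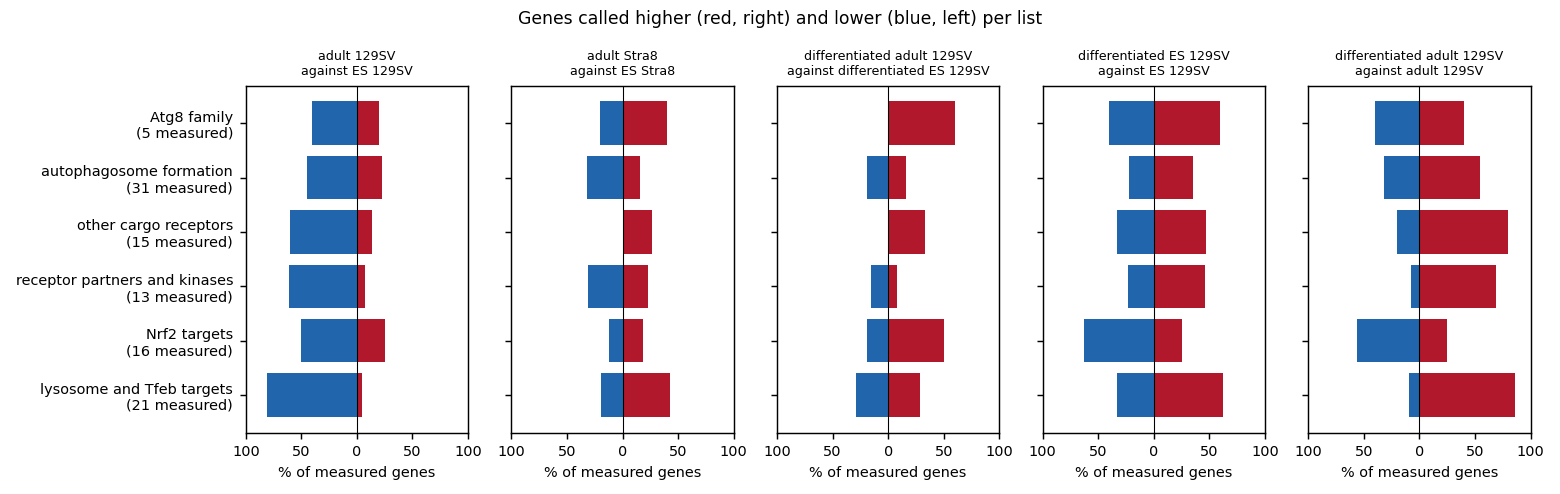
Share of the measured genes of 6 autophagy-related lists (rows) called higher (red, right) or lower (blue, left) in the first-named group, in percent, in 5 comparisons. Lysosome genes fell in 17 of 21 in adult against ES 129SV cells and rose in 18 of 21 in differentiated adult against adult 129SV cells.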

How the data were processed

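The submitters' processing notes name RMA and Affymetrix Expression Console, without versions, for the log2 signals deposited by the authors; 300 ng of RNA was labelled per array, per the labels' protocols. They ran from 1.27 to 14.6 over 35556 probe sets and were used as deposited. The GEO platform annotation gave 21789 probe sets 1 symbol, 1621 several and 12146 none. The probe set with the highest mean was taken for each of 19938 genes, 999 of which had several. A linear model with a mean for each of the 6 groups was fitted across the 18 arrays in limma 3.58.1, R 4.3.3 (lmFit, eBayes; 12 residual and 3.78 prior degrees of freedom), tested on simulated data, and a gene was called where its p, adjusted by Benjamini and Hochberg's method across 19938 genes, was under 0.05. Standard errors use that shared spread. The receptors, lists and comparisons were chosen with earlier results of these data known. Other genes named are the 5 most like Calcoco2, the 1 most like each other receptor, the 5 neighbours on each side, and the 2 largest called changes of a list or a gene needed for its role.

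Replicate numbers were checked for pairing by the correlation of deviations from group means. In the differentiated groups each same-numbered pair was over 0.1 (0.15, 0.14 and 0.44), and a block within these 6 arrays was added after the data were seen. No other comparison met this.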

Additional observations from a re-analysis of the deposited data

Results flagged for a closer look

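The effect of origin on Nbr1 differed between backgrounds by -0.28 ± 0.08 (SE), with an adjusted p of 0.00770 in limma's interaction test: adult cells were lower than ES cells in Stra8 and not called in 129SV. The response to differentiation differed between origins for Sqstm1, by 0.94 ± 0.06 (adjusted p = 5.86e-09), and for Tax1bp1, by 0.68 ± 0.11 (adjusted p = 9.20e-05), each larger in adult cells. For Calcoco2 the effect of origin differed between backgrounds by -3.71. There every adult array lay above every ES array in 129SV and below in Stra8; this difference was not tested, since the gene was chosen for it. No group held enough arrays to look for single outlying ones.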

How the results depend on the processing

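Each change of a receptor was recomputed under other fits, scalings and filters and without each array in turn, and no called change, nor any described change of Calcoco2, turned its sign; the calls that were lost stand beside their results. The second probe set of Calcoco2 and the loss of replicate 3 of differentiated ES moved its described differences most. With the replicate number as a block over all 18 arrays no receptor was gained or lost (2 of 4 called between adult and ES 129SV cells, as without it). Between the differentiated groups 3 of the 4 receptors other than Calcoco2 were called. With the block within those arrays Sqstm1 stayed called (limma, adjusted p = 0.0419), while the calls of Calcoco1 (0.131) and Tax1bp1 (0.0779) were lost. The fit to those arrays alone also kept Sqstm1 (0.0329) and lost Calcoco1 and Tax1bp1. Calcoco2, picked with results of this series known, is left out here. The block called 4244 genes in place of 6419, and the fit alone 3537. With array weights all 4 tested receptors and 8690 genes were called between adult and ES Stra8 cells, in place of 2 and 5638. The effect of origin differed between backgrounds for 2 receptors, in place of 1, with array weights, with centred arrays or in a fit to the 12 arrays alone.

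Requiring 2-fold left 0 receptors other than Calcoco2 called in every comparison. The change of Calcoco2 between the differentiated groups, 1.51, is over that threshold. Of all genes it left 785 for adult against ES 129SV, 150 for adult against ES Stra8 and 253 between the differentiated groups. It left 2316 and 2371 for differentiation of ES and adult cells. Between backgrounds it left 905 and 974 for ES and adult cells, and for the interactions 1719 and 1348. With all probe sets tested the counts were 13843 in place of 9196 for adult against ES 129SV, 17196 in place of 11005 and 19344 in place of 11906 for differentiation of ES and adult cells, and 15651 in place of 10173 for adult Stra8 against adult 129SV. Leaving out single arrays kept the count of receptors in each comparison, with 2 exceptions. It was 3 to 5 between the differentiated groups, with Calcoco2 among those called each time, and 2 to 3 in the response to differentiation. Centring arrays lowered the median of all genes by 0.13 in differentiated against undifferentiated ES cells, so small changes of Sqstm1 and Tax1bp1 there depend on the scale: centred, Tax1bp1 was called at -0.20 (adjusted p = 0.0470). The causes were not tested.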
